A study of Homo sapiens with 83 samples.

Results

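The part of the data described here is the collagen chains, the genes whose symbol is COL, a type number, A and a chain number. The rule matched 44 of the 60237 genes in the table, each once. A chain was tested in a cell line where its mean was at least 1 TPM (a level scaled to transcript length and to a fixed total per library) over that line's libraries. This held for 18 chains in SHEP and 18 in SKNAS, of which 14 were tested in both, and 22 chains were tested in at least 1 line. The remaining 22 were below that mean in both lines and are counted as silent.

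Polyadenylated RNA had been sequenced from SHEP and SKNAS, human neuroblastoma cell lines that both overexpress N-MYC-ER, an N-MYC protein fused to part of the estrogen receptor. The fusion is made in all groups and is active only with 4-hydroxytamoxifen (4OHT). Cells given 4OHT are named MYC-ON and cells given ethanol, the vehicle, MYC-OFF, and every group then received dexamethasone, which sets the circadian clocks of a culture to a common phase. RNA was taken every 4 h, from circadian time (CT, hours after dexamethasone) 24 to 76, giving 28 libraries for each SHEP condition, 14 for SKNAS MYC-OFF and 13 for SKNAS MYC-ON, the last ending at CT 72. SHEP had 2 repeat experiments, here called series, and SKNAS had 1. The libraries of a series are successive harvests, so p-values measure the spread between libraries and not between independent cultures, and 4OHT was not given here to cells without the fusion.

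Collagens are the main structural proteins of the extracellular matrix. Each molecule is a trimer of chains that wind into a stiff helix, and the chains come from separate genes that must be expressed together to build a mixed trimer. Fibrillar collagens (types I, II, III, V, XI, XXIV and XXVII) form the fibrils of connective tissue, type IV networks with types XV and XVIII belong to basement membranes, and the remaining types include beaded filaments (VI), anchoring fibrils (VII), fibril-associated molecules (such as IX, XII, XVI and XIX) and transmembrane collagens (XIII and XVII). In neuroblastoma, matrix genes of this kind are known as features of mesenchymal rather than adrenergic cells.

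Sequencing depth cannot be read from these values, since TPM sum to the same total in every library. In SKNAS the libraries stood apart from one another. The median of log2(TPM + 1) over genes was at least 3.8 in 10 of 14 MYC-OFF but only 3 of 13 MYC-ON libraries, and was above 3.8 in every SHEP library. The summed collagen level moved with it. In SKNAS MYC-OFF the 44 chains summed to 2345 ± 162 TPM (SD, n = 10) in libraries with the higher median and to 770 ± 282 TPM (SD, n = 4) in the others. Changes in SKNAS are given over all libraries, and those of the leading chains and the counts of chains again over the 13 of higher median. Shares of the pool, ratios of chains and the lists of other genes are over all libraries only. The defining markers of the adrenergic state were mostly absent from SHEP, where 6 of 8 were below a mean of 1 TPM, against 3 of 8 in SKNAS. Of 9 mesenchymal markers, 8 were above a mean of 1 TPM in both MYC-OFF groups and in SKNAS MYC-ON, and all 9 in SHEP MYC-ON. The 4 endothelial markers summed to at most 2.12 TPM in any library. Of the 4 epithelial markers the keratins KRT8 and KRT18 were high, at means of 834 and 949 TPM in SHEP MYC-OFF and 309 and 509 TPM in SKNAS MYC-OFF, and EPCAM and CDH1 were at most 1.16 TPM in any group. Of the 3 leukocyte markers CD3E was below 1 TPM in all groups. CD68 had means of 46.1 TPM in SHEP MYC-OFF and 127 TPM in SKNAS MYC-OFF, and PTPRC, the pan-leukocyte antigen CD45, was near 0 in SHEP but at 80.4 TPM in SKNAS MYC-OFF and 21.5 TPM in SKNAS MYC-ON.

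Without active N-MYC-ER, SHEP and SKNAS expressed different collagens. In SHEP the pool was dominated by COL1A1, the main chain of type I collagen of bone, skin and tendon, and in SKNAS by COL3A1, the chain of type III collagen of elastic tissues. COL1A1 made up 72.1% ± 1.95 (SD, n = 28) of the summed collagen TPM of SHEP MYC-OFF and 2.44% ± 0.749 (SD, n = 14) of that of SKNAS MYC-OFF. COL3A1 made up 57.4% ± 9.24 (SD, n = 14) of the SKNAS pool. In SHEP MYC-OFF it had a highest value of 0.303 TPM and was listed at 0 in 7 of 28 libraries. All collagens together came to 3775 ± 505 TPM (SD, n = 28) in SHEP MYC-OFF, which is 0.377% of all transcripts, and to 1895 ± 763 TPM (SD, n = 14) in SKNAS MYC-OFF, which is 0.190%.

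COL1A2, the partner chain with which COL1A1 forms the usual type I trimer, was silent. It had a mean of 0.154 TPM in SHEP MYC-OFF, where COL1A1 stood at 2727 TPM, and its highest value in any of the 83 libraries was 0.511 TPM. TPM alone do not tell whether the transcript was missing or was lost in quantification. Fibrillar chains were silent in 6 of 11 cases (COL11A1, COL11A2, COL1A2, COL24A1, COL2A1 and COL5A3), basement membrane chains in 3 of 8 (COL15A1, COL4A3 and COL4A4) and the remaining types in 13 of 25 (COL10A1, COL14A1, COL20A1, COL21A1, COL22A1, COL23A1, COL25A1, COL26A1, COL28A1, COL6A5, COL6A6, COL8A2 and COL9A1). COL22A1 was listed at 0 in all libraries. The closest to the threshold among the silent chains was COL26A1, at a mean of 0.563 TPM in SKNAS, and the closest tested value was COL9A3, at 1.32 TPM in SKNAS.

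By the limma test, 12 of 22 chains were higher in SHEP than in SKNAS in MYC-OFF (45.6% of all 15942 genes tested) and 10 were lower (33.5%), so a high share of genes differed in general. For 8 of the 22 the direction was set by the choice of chains, since they reached the threshold only in the line where they are high. Of the 14 chains tested in both lines, 8 were higher in SHEP (43.4% of 12306 genes tested in both) and 6 lower (31.5%). Line and experiment cannot be told apart in this comparison. Higher in SHEP were COL12A1, a fibril-associated chain (log2 difference on TPM + 1 of 7.35, SE 0.13), COL1A1 (6.06, SE 0.25), COL16A1 (4.63, SE 0.12), COL4A2 (4.35, SE 0.091), COL4A1 (4.02, SE 0.11), COL5A2 (3.73, SE 0.11), COL8A1 (3.70, SE 0.060), COL5A1 (2.00, SE 0.24), COL27A1 (1.48, SE 0.13), COL7A1 (0.71, SE 0.14), COL17A1 (0.60, SE 0.057) and COL13A1 (0.32, SE 0.093). Higher in SKNAS were COL3A1 (-9.84, SE 0.19), COL19A1 (-4.16, SE 0.11), COL4A6 (-1.75, SE 0.12), COL4A5 (-1.70, SE 0.15), COL9A3 (-1.43, SE 0.10), COL18A1 (-1.09, SE 0.12), COL9A2 (-0.99, SE 0.13), COL6A1 (-0.89, SE 0.15), COL6A2 (-0.51, SE 0.10) and COL6A3 (-0.32, SE 0.14). Each passed the limma test, with COL6A3 at the highest adjusted p, 0.0423, and COL13A1 no longer passed without SHEP series 1 (0.18, limma adjusted p = 0.124) or after rescaling (0.16, limma adjusted p = 0.234). The basement membrane genes split by pair. COL4A1 and COL4A2, the chains of the ubiquitous type IV network, were higher in SHEP, whereas COL4A5 and COL4A6, chains of tissue-restricted networks, were higher in SKNAS.

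**Figure D1:**
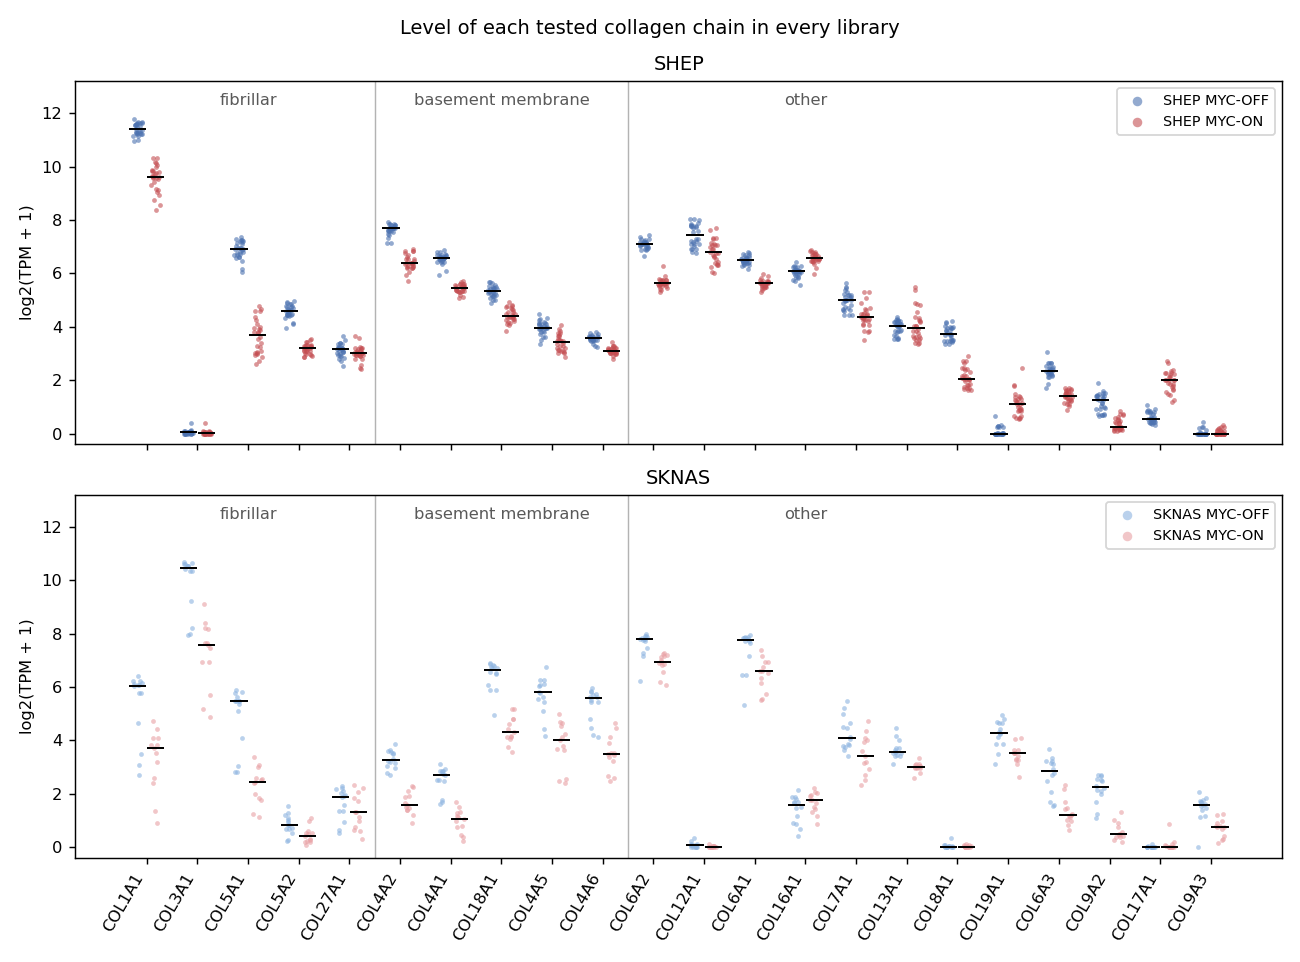
Level of the 22 tested collagen chains in each of the 83 libraries, as log2(TPM + 1), with SHEP above and SKNAS below, chains grouped by class, each point a library and each bar a group median. COL1A1 leads in SHEP, where COL3A1 is near 0, COL3A1 leads in SKNAS, and in both lines most chains lie lower in MYC-ON.

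The main comparison asked how the chains changed with active N-MYC-ER. In SHEP, 14 of 18 tested chains fell and 2 rose. Over all 14362 genes tested in SHEP, 38.9% were lower and 33% higher by the same limma rule, which asks for an adjusted p no higher than 0.05 together with a log2 difference of 0.15 or more. The median log2 change of the chains was -0.89, against -0.036 for all genes. The collagen pool fell with the chains, from a range of 2806 to 4697 TPM (median 3743) to one of 815 to 1981 TPM (median 1308), with no overlap between the groups. For 8 chains every MYC-ON library lay below every MYC-OFF library (6.36% of all genes), and for 1 chain every MYC-ON library lay above (6.11% of all genes). The latter is 5.56% of the chains, near the share of all genes. This chain, COL17A1, is also 1 of the 2 that rose, and reached the threshold of 1 TPM only through the MYC-ON group, where it is high. In bulk RNA of this kind, fewer cells that express a chain and less RNA per cell cannot be told apart.

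The deepest fall was that of COL5A1 (ENSG00000130635, chromosome 9, 134641803 to 134844843, + strand), which codes for a type V chain that regulates the width of type I fibrils. It ranged from 65.1 to 162 TPM (median 120.0) in MYC-OFF and from 5.05 to 26.1 TPM (median 11.9) in MYC-ON. The groups did not overlap. The log2 change was -3.24 (SE 0.14, limma adjusted p = 4.04e-25), a 9.48-fold lower value of TPM + 1, and COL5A1 was lower in 28 of 28 pairs of the same CT and series. Its partner in type V collagen, COL5A2, fell less, from 14.7 to 29.9 TPM (median 23.1) to 6.25 to 10.6 TPM (median 8.23) (log2 change -1.39, SE 0.053, limma adjusted p = 5.24e-27).

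COL1A1 (ENSG00000108821, chromosome 17, 50184101 to 50201632, - strand) was the most abundant chain in both SHEP groups. It ranged from 1969 to 3476 TPM (median 2679) in MYC-OFF and from 329 to 1280 TPM (median 789) in MYC-ON, again without overlap. The log2 change was -1.84 (SE 0.097, limma adjusted p = 7.19e-22). The MYC-OFF level differed between the series, at 2368 ± 191 TPM (SD, n = 14) in series 1 and 3086 ± 187 TPM (SD, n = 14) in series 2, and in each series all MYC-ON libraries were lower. COL27A1, a fibrillar chain of developing cartilage, had means of 7.83 ± 1.48 and 7.19 ± 1.55 TPM (SD, n = 28 each) and did not pass the test (log2 change -0.11, SE 0.065, limma adjusted p = 0.11).

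The 5 tested basement membrane chains all fell in SHEP, by a median of -0.90 on the log2 scale, beside 38.9% of all genes lower. COL4A2 (ENSG00000134871, chromosome 13, 110305812 to 110513209, + strand) went from 140 to 244 TPM (median 206) to 51.2 to 118 TPM (median 82.2), and COL4A1 (ENSG00000187498, chromosome 13, 110148963 to 110307157, - strand) from 59.9 to 116 TPM (median 95.0) to 33.2 to 51.0 TPM (median 43.2). Neither overlapped between the groups. COL4A2 changed by -1.23 on the log2 scale (SE 0.064) and COL4A1 by -1.119 (SE 0.046), with limma adjusted p-values of 4.84e-22 and 7.11e-26. COL18A1, whose protein is the source of endostatin, had means of 39.6 ± 5.60 and 20.9 ± 3.96 TPM (SD, n = 28 each) and changed by -0.90 on the log2 scale (SE 0.057, limma adjusted p = 7.43e-19). COL4A5 and COL4A6 fell least of the 5, by -0.56 (SE 0.078) and -0.45 (SE 0.034) on the log2 scale.

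Of the remaining types, 6 of 9 tested chains fell in SHEP, beside 38.9% of all genes. COL8A1, a short network-forming chain, went from 9.21 to 17.8 TPM (median 12.4) to 2.11 to 6.48 TPM (median 3.15) (log2 change -1.63, SE 0.051, limma adjusted p = 4.9e-30). The 3 chains of the type VI beaded filament fell together. COL6A2 changed by -1.45 (SE 0.037), COL6A3 by -0.96 (SE 0.058) and COL6A1 by -0.88 (SE 0.033) on the log2 scale, each lower in 28 of 28 pairs. COL12A1 changed by -0.63 (SE 0.11, limma adjusted p = 1.72e-06) and COL7A1, the chain of anchoring fibrils, by -0.58 (SE 0.10, limma adjusted p = 1.9e-06). COL12A1 was at 133 ± 15.5 TPM (SD, n = 14) in series 1 of MYC-OFF and 223 ± 22.96 TPM (SD, n = 14) in series 2. In MYC-ON these means were 90.3 ± 19.4 TPM and 141 ± 32.5 TPM (SD, n = 14 each). It was lower within each series. With the series means as replicates, in a fit without a term for series, it no longer passed (limma adjusted p = 0.133).

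COL17A1 and COL16A1 rose in SHEP. COL17A1 (ENSG00000065618, chromosome 10, 104031286 to 104085880, - strand) codes for a transmembrane collagen of the hemidesmosomes that anchor epithelial cells. It ranged from 0.236 to 1.121 TPM (median 0.467) in MYC-OFF and from 1.27 to 5.53 TPM (median 3.01) in MYC-ON. The groups did not overlap, the log2 change was 1.35 (SE 0.083, limma adjusted p = 2.18e-19), and it was higher in 28 of 28 pairs. At a line mean of 1.79 TPM it passed the threshold of 1 TPM through the MYC-ON group. COL16A1, a fibril-associated chain, ranged from 46.8 to 84.1 TPM (median 66.4) and from 61.6 to 118 TPM (median 94.5), groups that overlap. Its log2 change was 0.53 (SE 0.054, limma adjusted p = 4.28e-12), higher in 26 of 28 pairs. COL13A1, a transmembrane collagen, had means of 15.02 ± 2.67 and 17.4 ± 8.92 TPM (SD, n = 28 each) and did not pass (0.093, SE 0.11, limma adjusted p = 0.447). COL19A1, below the threshold in SHEP, was listed at 0 in 16 of 28 MYC-OFF libraries and ranged from 0.453 to 4.54 TPM in MYC-ON.

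In SKNAS, 16 of 18 tested chains fell with active N-MYC-ER, beside 34.4% of the 13886 genes tested. By the limma rule 0 chains rose, beside 13.7% of all genes, and 0 chains were higher at an unadjusted p under 0.05. The falls include COL9A2 and COL9A3, which reached the threshold of 1 TPM only through the MYC-OFF group, where they are high. The median log2 change was -1.42 for the chains and -0.29 for all genes. Only COL4A2 had every MYC-ON library below every MYC-OFF library (2.09% of all genes), and 0 chains had every MYC-ON library above (2.32%). With the 13 libraries of higher median the counts depended on the model. A fit that keeps CT as a factor had 1 residual degree of freedom and called 0 chains, beside 0.194% of all genes lower and 0.302% higher. A fit without CT, chosen after seeing the data, called 16 chains lower, beside 25.4% of all genes.

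COL3A1 (ENSG00000168542, chromosome 2, 188974373 to 189012746, + strand) had the deepest fall in SKNAS on the scale of log2(TPM + 1). In mean TPM it went from 1149 to 199, and COL5A1 (35.7 to 4.44) and COL9A2 (3.75 to 0.547) fell further in proportion. COL3A1 ranged from 246 to 1617 TPM (median 1418) in MYC-OFF and from 28.2 to 553 TPM (median 188) in MYC-ON. These groups overlap, since the 4 MYC-OFF libraries of low median lay between 246 and 600 TPM, with 10 others between 1292 and 1617 TPM. The log2 change was -2.63 (SE 0.32, limma adjusted p = 1.01e-05), lower in 13 of 13 pairs. Among libraries of higher median COL3A1 was at 1470 ± 118 TPM (SD, n = 10) in MYC-OFF and 391 ± 142 TPM (SD, n = 3) in MYC-ON with no overlap. The change there without CT was -1.96, a smaller fall than that of COL5A1 in the same fit.

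COL5A1 ranged from 5.97 to 58.9 TPM (median 43.2) in SKNAS MYC-OFF and from 1.17 to 9.29 TPM (median 4.495) in MYC-ON. The log2 change was -2.52 (SE 0.30, limma adjusted p = 8.85e-06), and -2.40 over the libraries of higher median without CT. COL1A1 changed by -1.99 (SE 0.35, limma adjusted p = 0.000316) from means of 51.4 ± 27.4 TPM (SD, n = 14) to 11.4 ± 7.37 TPM (SD, n = 13). With the library median as a covariate it changed by -1.14. COL27A1 did not pass (-0.32, SE 0.20, limma adjusted p = 0.202), and its sign turned to 0.17 with that covariate.

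All 5 basement membrane chains fell in SKNAS, by -1.56 to -2.00 on the log2 scale, beside 34.4% of all genes lower. COL18A1 ranged from 30.2 to 119.5 TPM (median 97.4) in MYC-OFF and from 10.98 to 35.4 TPM (median 19.0) in MYC-ON, groups that overlapped only between 30.2 and 35.4 TPM, with a change of -2.00 (SE 0.14, limma adjusted p = 4.97e-08). COL4A5 changed by -1.81 (SE 0.21, limma adjusted p = 6.67e-06) and COL4A6 by -1.76 (SE 0.20, limma adjusted p = 6.24e-06). COL4A2 went from 5.57 to 13.5 TPM to 0.869 to 3.90 TPM (-1.62, SE 0.13), and COL4A1 from 2.10 to 7.77 TPM to 0.179 to 2.21 TPM (-1.56, SE 0.12). Each of these 5 chains was lower in 13 of 13 pairs. Over the libraries of higher median, without CT, the 5 changes lay between -1.25 (COL4A5) and -2.07 (COL18A1).

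Of the remaining types, 8 of 9 tested chains fell in SKNAS, beside 34.4% of all genes. Of these, COL9A2 and COL9A3 reached the threshold of 1 TPM only through MYC-OFF, where they are high, so their tests add no support. COL9A2, a chain of the type IX collagen that decorates cartilage fibrils, went from 1.14 to 5.49 TPM (median 3.79) to 0.140 to 1.50 TPM (median 0.394) (log2 change -1.54, SE 0.17, limma adjusted p = 4.68e-06). COL6A3 changed by -1.305 (SE 0.24), COL6A1 by -0.89 (SE 0.19), COL7A1 by -0.82 (SE 0.27), COL19A1 by -0.78 (SE 0.16), COL9A3 by -0.75 (SE 0.13), COL6A2 by -0.72 (SE 0.13) and COL13A1 by -0.60 (SE 0.13), with limma adjusted p-values from 0.000216 to 0.0206. COL7A1 was lost with no filter on low values (limma adjusted p = 0.0541). After median-of-ratios rescaling COL7A1 (-0.46, limma adjusted p = 0.318) and COL13A1 (-0.26, limma adjusted p = 0.179) no longer passed. COL7A1 went against the other chains in the libraries themselves, at 15.9 ± 4.85 TPM (SD, n = 10) in the MYC-OFF libraries of higher median and 30.8 ± 12.7 TPM (SD, n = 4) in those of low median. COL16A1 did not pass (0.28, SE 0.15, limma adjusted p = 0.136) and passed after rescaling (0.56, limma adjusted p = 0.000554).

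**Figure D2:**
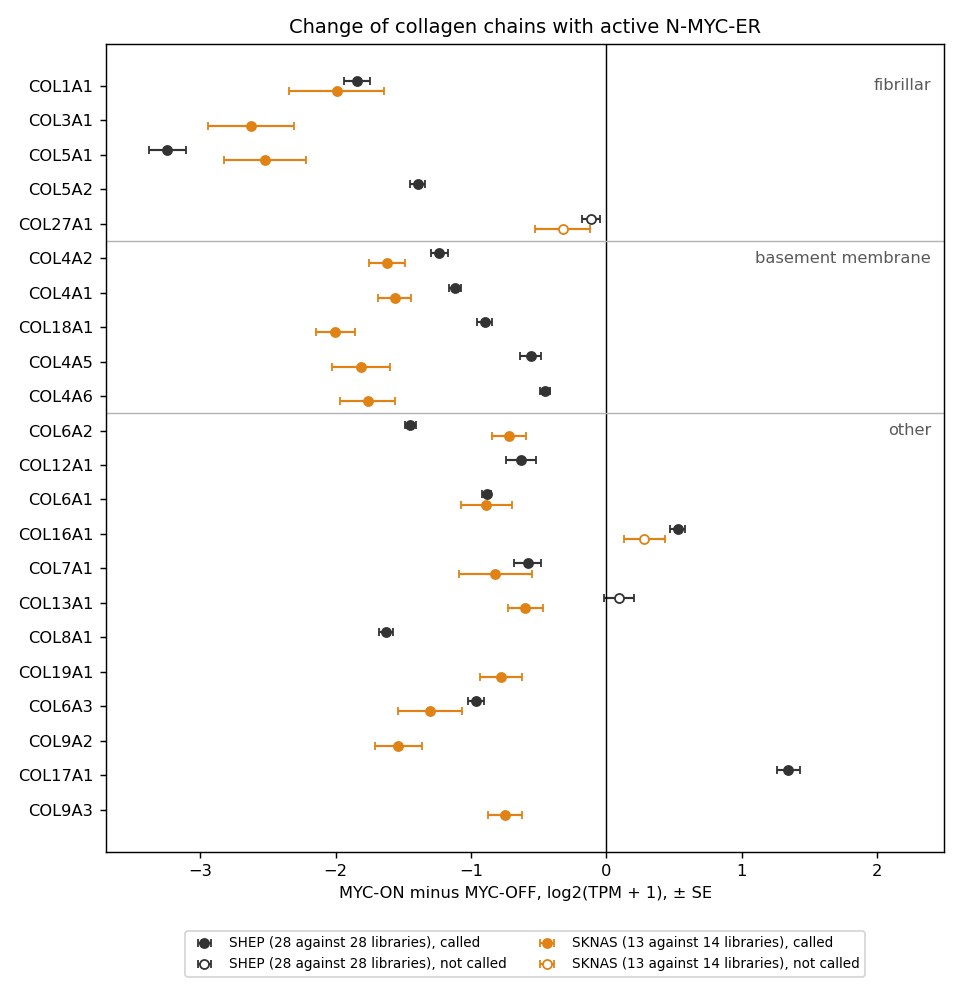
Log2 difference of TPM + 1 between MYC-ON and MYC-OFF for the tested chains, with the standard error of the limma fit, in SHEP (black) and SKNAS (orange), filled where called. All basement membrane chains lie left of 0 in both lines, COL5A1 is the lowest point of SHEP, and COL17A1 and COL16A1 are the filled points right of 0.

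Of the 14 chains tested in both lines, 11 were lower in both, beside 24.1% of the 12306 genes tested in both, and 0 were higher in both, beside 11.5%. The 11 were COL18A1, COL1A1, COL4A1, COL4A2, COL4A5, COL4A6, COL5A1, COL6A1, COL6A2, COL6A3 and COL7A1. An interaction term, fitted to the 83 libraries together, asked whether the size of the change differed by line. Of 22 chains, 5 had a SKNAS effect above that of SHEP (13.5% of 15942 genes) and 11 one below it (38%). Of these 16, 8 were below the threshold in a line and are not compared further, and 8 were tested in both lines. Among the 14 chains tested in both, 2 had a SKNAS effect above that of SHEP (10.7% of the 12306 genes) and 6 one below it (38.7%), shares near those of all genes. COL4A6 fell more in SKNAS than in SHEP by -1.31 (SE 0.13, limma interaction, adjusted p = 1.93e-12), COL4A5 by -1.25 (SE 0.18, adjusted p = 2.45e-08) and COL18A1 by -1.10 (SE 0.12, adjusted p = 1.71e-11). COL6A2 differed the other way by 0.73 (SE 0.090, limma interaction, adjusted p = 9.03e-10), falling more in SHEP. COL18A1, COL4A6 and COL6A2 passed in this direction under each alternative run, while the difference of COL5A1 (0.72, SE 0.29, limma interaction, adjusted p = 0.0309) was lost with either SHEP series left out, without series 1 (0.68, adjusted p = 0.185) and without series 2 (0.77, adjusted p = 0.106). COL1A1 and COL6A1 had differences of -0.15 (SE 0.27) and -0.0032 (SE 0.12) that did not pass, and with the library median as covariate COL6A1 turned to 0.32, where it passed (limma interaction, adjusted p = 0.000567), as did COL1A1 at 0.58 (adjusted p = 0.00556).

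The make-up of the pool shifted with N-MYC-ER as the leading fibrillar chain fell. In SHEP fibrillar chains made up 76.1% ± 1.80 of the summed collagen TPM in MYC-OFF and 59.8% ± 7.35 in MYC-ON (SD, n = 28 each). Basement membrane chains went from 9.62% ± 1.05 to 12.8% ± 2.45 and the remaining types from 14.3% ± 0.895 to 27.4% ± 5.01. COL16A1 alone went from 1.74% ± 0.178 to 7.28% ± 1.298 and COL12A1 from 4.67% ± 0.888 to 8.64% ± 2.11 (SD, n = 28 each). These shares add to 100% in every library, so the gain of a chain in share can accompany a lower level, as for COL12A1. In SKNAS fibrillar chains went from 61.7% ± 10.3 (SD, n = 14) to 37.0% ± 12.6 (SD, n = 13). COL6A2 went from 12.1% ± 4.32 to 25.5% ± 6.51 and COL6A1 from 10.01% ± 1.49 to 18.8% ± 1.80, also with lower levels. The SKNAS shares moved with the library median too, and its part in these shifts was not tested. In MYC-OFF, COL6A2 averaged 228 of 2345 TPM in libraries of higher median and 136 of 770 TPM in the others. For COL6A1 these were 224 of 2345 and 88.5 of 770 TPM. In MYC-ON libraries of higher median, COL6A2 averaged 136 and COL6A1 142 of 815 TPM. The shares were not tested.

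**Figure D3:**
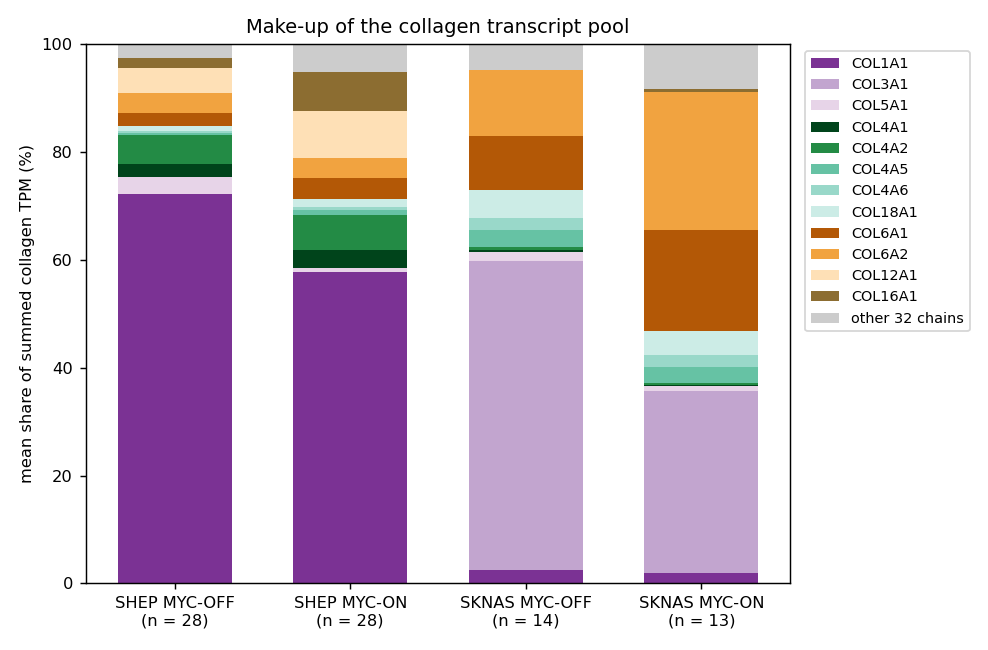
Mean share (%) of the summed TPM of the 44 collagen chains taken by 12 chains and by the remaining 32 together, in each group. COL1A1 fills 72.1% of the SHEP MYC-OFF bar and 57.6% of the MYC-ON bar, and COL3A1 57.4% and 33.7% of the SKNAS bars.

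Chains that assemble into the same trimer were compared as ratios of TPM + 1, which for chains of a few TPM differ from ratios of TPM. Over 10 ratios (5 pairs of chains in 2 lines), a two-sided permutation test of the sign of the differences between same-CT pairs was used, exact in SKNAS and with 100000 resamples in SHEP, where 1e-05 is the smallest p it can give. In SHEP the ratio of COL5A1 to COL5A2 fell by 1.85 on the log2 scale (SD of the differences 0.796, lower in 28 of 28 pairs, permutation test, adjusted p = 3.33e-05). In mean TPM, COL5A1 was at 5.16 times COL5A2 in MYC-OFF and 1.55 times in MYC-ON. The ratio of COL6A1 to COL6A2 rose by 0.56 in 28 of 28 SHEP pairs (SD of the differences 0.143, permutation test, adjusted p = 3.33e-05), from 0.660 to 0.977 in mean TPM. In SKNAS it changed by -0.17 (exact permutation test, adjusted p = 0.155), and COL6A3 fell against COL6A1 by 0.42 (SD of the differences 0.491, lower in 10 of 13 pairs, exact permutation test, adjusted p = 0.0212). COL4A1 and COL4A2 did not change their ratio detectably, with differences of 0.11 in SHEP (permutation test, adjusted p = 0.114) and 0.056 in SKNAS (exact permutation test, adjusted p = 0.582). In mean TPM the SKNAS ratio went the other way, from 0.562 to 0.461, and with a pseudocount of 0.1 its change was -0.31. COL1A2 in both lines and COL5A2 in SKNAS were below 1 TPM, so the ratios that hold them were not read.

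**Figure D4:**
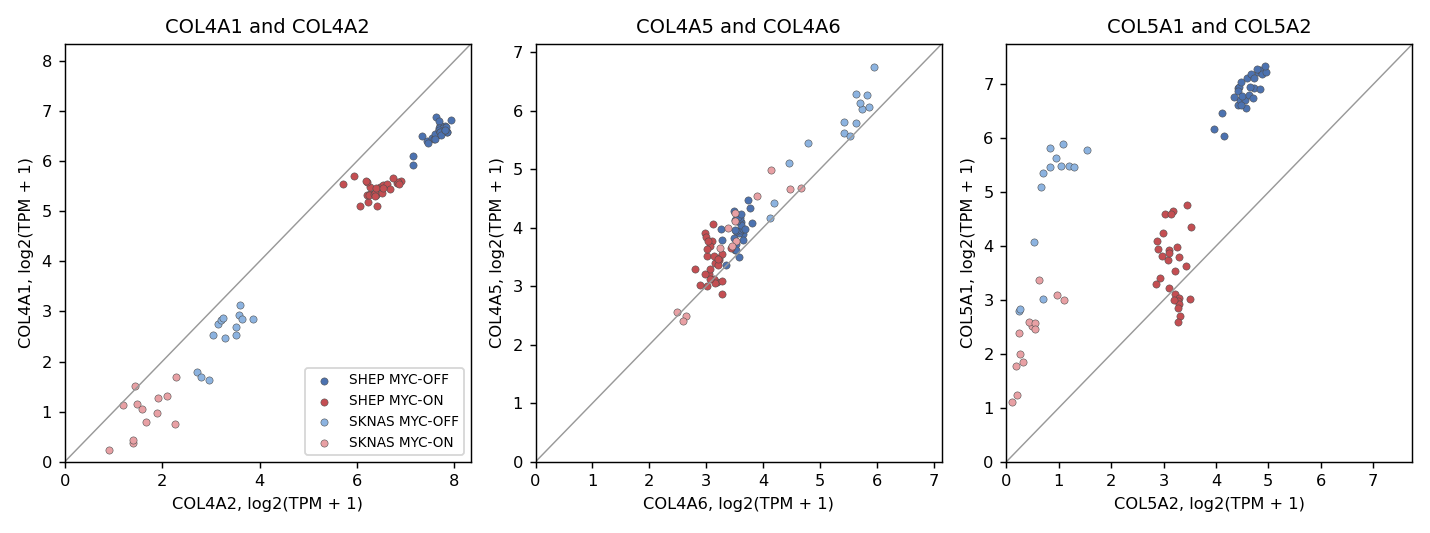
Levels of 3 pairs of partner chains, as log2(TPM + 1), in the 83 libraries coloured by group, with the line of equal levels. COL4A1 lies below COL4A2 in nearly all libraries, COL4A5 runs close to COL4A6, and COL5A1 of SHEP drops from MYC-OFF to MYC-ON further than COL5A2.

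The type IV genes lie head to head. In RefSeq the start sites of COL4A1 and COL4A2 are 127 bases apart on chromosome 13, those of COL4A6 and COL4A5 are 380 bases apart on chromosome X, and those of the silent COL4A4 and COL4A3 are 419 bases apart on chromosome 2. Most of the stretch between the first pair is printed because it serves both genes, which fell together. The 250 bases before the start are printed for COL5A1, which fell most in SHEP, for COL6A2, which had the smallest adjusted p there, and for COL17A1, which rose. Sequences are from RefSeq (GRCh38.p14), 5′ to 3′ on the strand given. Capitals mark matches on either strand to the motif CCAAT, to the GC box GGGCGG, to the motif TATAAA or to CACGTG, the E-box that MYC proteins bind.
COL4A1 to COL4A2, chr13:110307158-110307257, + strand: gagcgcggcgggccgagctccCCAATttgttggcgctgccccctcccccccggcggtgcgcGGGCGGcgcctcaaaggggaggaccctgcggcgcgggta
COL5A1, chr9:134641553-134641802, + strand: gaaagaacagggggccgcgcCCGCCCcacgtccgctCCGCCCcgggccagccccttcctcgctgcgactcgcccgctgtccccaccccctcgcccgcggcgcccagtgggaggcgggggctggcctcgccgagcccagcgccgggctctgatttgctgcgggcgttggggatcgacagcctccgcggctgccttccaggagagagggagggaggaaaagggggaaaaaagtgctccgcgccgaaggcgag
COL6A2, chr21:46097862-46098111, + strand: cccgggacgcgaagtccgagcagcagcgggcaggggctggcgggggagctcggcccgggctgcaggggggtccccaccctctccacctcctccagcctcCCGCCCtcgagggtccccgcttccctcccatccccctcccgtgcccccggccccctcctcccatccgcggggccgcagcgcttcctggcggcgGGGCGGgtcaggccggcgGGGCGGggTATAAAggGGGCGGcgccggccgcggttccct
COL17A1, chr10:104085881-104086130, - strand: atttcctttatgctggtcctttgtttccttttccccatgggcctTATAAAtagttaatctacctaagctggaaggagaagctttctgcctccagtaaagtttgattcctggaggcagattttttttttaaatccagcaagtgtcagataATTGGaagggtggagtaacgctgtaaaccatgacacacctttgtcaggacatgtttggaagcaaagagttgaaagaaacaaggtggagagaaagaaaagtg
The COL4A1 to COL4A2 stretch is cut before the RefSeq start of COL4A2, where a COL4A2 exon of the Gencode annotation begins, and Gencode also has a COL4A2 exon outside it, inside COL4A1. It holds 1 CCAAT and 1 GGGCGG, COL5A1 holds 2 GGGCGG, COL6A2 holds 4 GGGCGG and 1 TATAAA, and COL17A1 holds 1 CCAAT and 1 TATAAA. The G and C content was 78.0%, 74.0%, 79.6% and 40.4% in the same order, lowest in COL17A1. The other chain that rose in SHEP, COL16A1, is not printed here, and a window of it holds GGGCGG. RefSeq windows were matched for 16 of the 22 tested chains, in 19 windows. GGGCGG was found in 68.4% of these windows and in 42.6% of all 35116 windows, CCAAT in 26.3% and 32%, and TATAAA in 26.3% and 10.7%. CACGTG was in 0 of 19 windows and in 6.34% of all windows, which says only that these letters are not in the 250 bases before those starts. No window was matched for COL1A1, COL3A1, COL5A2, COL6A1, COL8A1 and COL9A3.

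The levels also drifted over the SHEP time courses. For 10 of 18 chains the slope differed between MYC-ON and MYC-OFF, beside 39.4% of all genes. In MYC-OFF 6 chains rose with time (2.9% of all genes) and 4 fell (5.06%). In MYC-ON 3 rose (16.6%) and 5 fell (30.9%), which are 16.7% and 27.8% of the chains and near the shares of all genes. The slope in MYC-ON was above that in MYC-OFF for 3 chains (14.7% of all genes) and below it for 7 (24.7%). The 3 are 16.7% of the chains, near the share of all genes. Without series 1, 2 chains rose in MYC-OFF (0.794% of all genes) and 2 fell (0.808%). In MYC-ON 2 then rose (15.7% of all genes) and 8 fell (26.4%). Without series 2, the slope in MYC-ON was below that in MYC-OFF for 4 chains (18.5% of all genes).

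COL5A1 moved apart over time. In MYC-OFF it went from 65.1 and 94.0 TPM at CT 24 in series 1 and 2 to 121 and 156 TPM at CT 76, and in MYC-ON from 14.4 and 26.1 TPM to 6.62 and 6.22 TPM. Its slopes were 0.36 (SE 0.042) and -0.83 (SE 0.058) per day on the log2 scale, a difference of -1.18 (SE 0.072, limma adjusted p = 5.03e-19). COL1A1 had a slope of 0.045 (SE 0.030) in MYC-OFF and -0.64 (SE 0.071) in MYC-ON, a difference of -0.68 (SE 0.078, limma adjusted p = 4.5e-10). From CT 24 to CT 76 of MYC-ON, COL1A1 went from 1008 to 484 TPM in series 1 and from 1266 to 430 TPM in series 2.

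COL13A1 and COL17A1, both transmembrane collagens, and COL7A1 were the 3 chains with a higher slope in MYC-ON. COL13A1 had no detectable slope in MYC-OFF (-0.0088 per day, SE 0.059) and rose by 0.60 per day (SE 0.073) in MYC-ON. It went from 11.3 TPM at CT 24 to 43.7 TPM at CT 76 in series 1 and from 11.8 to 28.3 TPM in series 2, and the difference of slopes was 0.61 (SE 0.095, limma adjusted p = 6.85e-07). This chain showed no change in level over all time points. COL17A1 fell by 0.15 per day (SE 0.049) in MYC-OFF and rose by 0.36 per day (SE 0.057) in MYC-ON. COL7A1 changed by -0.23 (SE 0.068) and 0.22 (SE 0.088) per day.

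COL8A1 fell in both, by 0.31 (SE 0.044) and 0.38 (SE 0.060) per day, and the difference of -0.070 (SE 0.075) did not pass. COL12A1 fell in both, faster in MYC-ON, with a difference of -0.25 (SE 0.044, limma adjusted p = 7.09e-06). COL6A2 and COL6A1 rose in MYC-OFF by 0.21 (SE 0.025) and 0.19 (SE 0.025) per day, and COL5A2 by 0.19 (SE 0.032). For these 3 chains the difference of slopes was below 0.15 in size and was not called, with limma adjusted p-values from 0.0239, for COL6A2, to 0.277, for COL5A2.

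**Figure D5:**
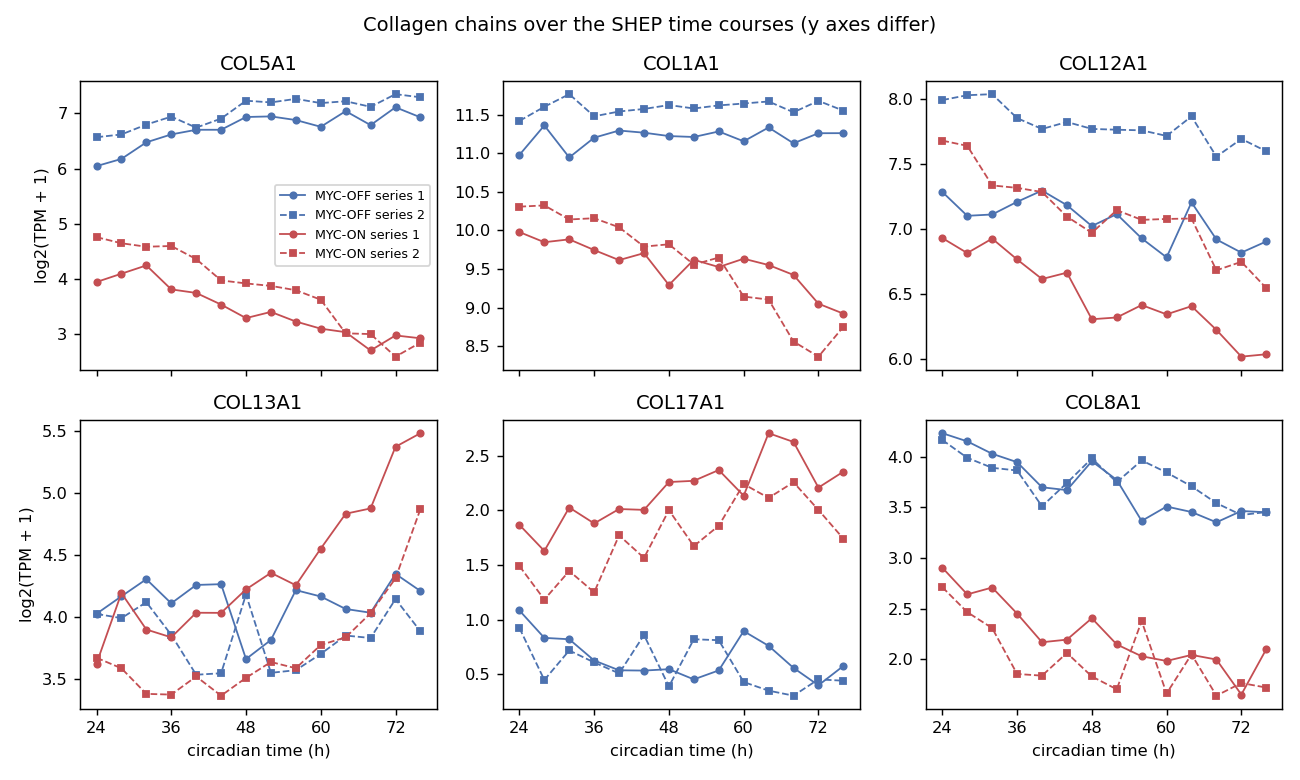
Log2(TPM + 1) of 6 chains against circadian time (h) in the 2 SHEP series of MYC-OFF (blue) and MYC-ON (red), with y axes that differ. COL5A1 and COL1A1 fall through the MYC-ON course in both series. COL13A1 and COL17A1 end it higher than they began, COL13A1 with a late rise and COL17A1 after a peak before the last time point.

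In SKNAS 0 chains had a called slope in MYC-OFF by limma (0% of all genes higher and 0% lower), with 5 at an unadjusted p under 0.05, and 0 in MYC-ON (0.0216% and 0.072% of all genes), with 9 at an unadjusted p under 0.05. A rhythm with a period of 24 h was not detected in any chain. In SHEP the limma test called 0 chains in MYC-OFF (0.0905% of all genes) and 0 in MYC-ON (0.0209%), with 0 and 4 chains at an unadjusted p under 0.05. In SKNAS it called 0 chains in either condition (0% and 0% of all genes), and 0 and 0 chains had an unadjusted p under 0.05. The 4 in SHEP MYC-ON were COL5A1, COL5A2, COL13A1 and COL27A1, in which the smallest limma adjusted p was 0.332.

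Genes that build, cross-link and bind collagen were read beside the chains, from lists of names. Of the folding and modification list, 13 of 19 tested genes fell in SHEP and 1 rose, beside the 38.9% lower and 33% higher of all genes. P4HA2, a subunit of the prolyl hydroxylase that stabilises the helix, changed by -1.47 (SE 0.042) in SHEP and -1.53 (SE 0.16) in SKNAS. SERPINH1, the collagen chaperone HSP47, went from 270 ± 17.9 to 119 ± 13.9 TPM (SD, n = 28 each) in SHEP, a change of -1.18 (SE 0.036, limma adjusted p = 1.54e-30). In SKNAS it had means of 411 ± 153 TPM (SD, n = 14) and 572 ± 224 TPM (SD, n = 13) and did not pass (0.49, SE 0.22, limma adjusted p = 0.0777). PLOD2, a lysyl hydroxylase, changed by -0.95 (SE 0.046) and P3H3 by -0.99 (SE 0.080) in SHEP. In SKNAS PLOD2 was below the threshold and P3H3 did not pass (-0.11, SE 0.12, limma adjusted p = 0.49). The riser was COLGALT2, which attaches galactose to hydroxylysine, at 2.18 (SE 0.046) in SHEP and 1.60 (SE 0.15) in SKNAS. In SKNAS 6 of 17 fell and 1 rose, a share of falls near the 34.4% of all genes.

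Of the processing and cross-linking list, 8 of 9 tested genes fell and 1 rose in SHEP, and 7 of 8 fell in SKNAS, beside 38.9% and 34.4% of all genes lower. LOX, a lysyl oxidase that cross-links fibrils, went from 74.9 ± 12.5 to 11.2 ± 4.19 TPM (SD, n = 28 each) in SHEP, lower by limma (-2.70 on the log2 scale, SE 0.066, adjusted p = 2.33e-34), and was below the threshold in SKNAS. LOXL2 changed by -1.59 (SE 0.051) and -1.31 (SE 0.42), LOXL1 by -1.41 (SE 0.088) and -1.53 (SE 0.15), and BMP1, the protease that removes the C-propeptide of fibrillar procollagens, by -1.67 (SE 0.083) and -1.18 (SE 0.26) in SHEP and SKNAS. ADAMTS14, an N-propeptide protease, changed by -1.42 (SE 0.094) in SHEP. Of the receptors, 5 of 6 fell in SHEP and 8 of 8 in SKNAS, beside the same shares. ITGB1, the beta chain of the collagen-binding integrins, changed by -1.29 (SE 0.048) and -1.47 (SE 0.29), ITGA1 by -1.47 (SE 0.10) and -2.35 (SE 0.30), DDR1, a collagen-activated kinase, by -1.21 (SE 0.071) and -2.15 (SE 0.26), MRC2, which takes up collagen, by -1.15 (SE 0.066) and -1.89 (SE 0.20), and DDR2 by -0.42 (SE 0.075) and -1.29 (SE 0.30).

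Of the fibroblast markers, 3 of 4 tested genes were lower in SHEP MYC-ON and 5 of 5 in SKNAS MYC-ON, beside 38.9% and 34.4% of all genes. Their sum lay between 359 and 468 TPM in SHEP MYC-OFF and between 144 and 434 TPM in MYC-ON, and between 952 and 2142 TPM and between 406 and 1291 TPM in SKNAS. DCN was below a mean of 1 TPM in both SHEP groups and PDGFRA in both MYC-ON groups. The mesenchymal list had 5 of 9 lower and 2 higher in SHEP and 3 of 8 lower and 1 higher in SKNAS, the latter near the 34.4% and 13.7% of all genes, with sums of 4154 to 5504 and 3453 to 5051 TPM in SHEP and 789 to 2119 and 675 to 2645 TPM in SKNAS. The adrenergic list had 1 of 2 higher in SHEP, with sums of 28.5 to 44.2 and 37.9 to 55.8 TPM, and 5 of 5 lower in SKNAS, with sums of 264 to 611 and 82.8 to 261 TPM. The epithelial list had 2 of 2 tested genes lower in SKNAS, with sums of 561 to 1078 and 313 to 457 TPM, and 0 of 2 in SHEP, with sums of 1135 to 2828 and 1268 to 2112 TPM. The leukocyte list had 2 of 2 lower in SKNAS, with sums of 85.5 to 312 and 26.5 to 135 TPM, and 1 of 1 in SHEP, with sums of 33.2 to 65.3 and 13.7 to 53.5 TPM. The part of these differences in the collagen results was not tested.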

How the data were processed

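RNA-seq reads had been quantified by the authors with Salmon 1.3.0 on the Gencode transcripts of GRCh38, and Tximport had summed transcripts to genes. The deposited values are TPM, 1 value per gene and library for 60237 genes in 83 libraries, scaled by the authors to gene length and to a fixed total, so they hold no read depth and give no counting error. The study used a model for counts, which does not suit TPM, so log2(TPM + 1) was fitted instead with limma 3.58.1 (R 4.3.3), a scale that understates changes of low chains. Tables were prepared with pandas 2.3.3. All genes with a mean of at least 1 TPM in a line entered the fit, with a term for each circadian time, so that time points served as replicates, and p-values were adjusted over all of them (Benjamini-Hochberg). A call needed an adjusted p no higher than 0.05 together with a log2 difference of 0.15 or more. Slopes were fitted per day with series as a factor, and a period of 24 h was tested with cosine and sine terms. Groups were taken from the sample titles.

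The members, the gene lists and the alternatives were chosen with earlier results of these data known. Every chain with a mean of at least 1 TPM in SHEP or SKNAS is named with values, the rest are named only, and from each pathway list the 5 genes with the largest absolute change in SHEP are named. No pair of libraries had identical values. In data simulated on the real means, the fit recovered 94 of 100 changes of 0.5 and 99 of 100 of 1 on the log2 scale in SHEP, and 12 and 56 of 100 in SKNAS, with 5 and 6 false calls. Coordinates are from the Gencode annotation of GRCh38 and sequences from RefSeq. For 13 of the 22 tested chains another gene overlaps on the opposite strand (COL4A1 and COL4A2 overlap each other), and the strand setting of the libraries is not given in the sources used here, so reads of overlapping genes may not be told apart. The alternatives were another pseudocount, no filter, median-of-ratios rescaling, the library median as covariate, SKNAS libraries of higher median, series means as replicates, a replicate block and leaving out each series.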

Additional observations from a re-analysis of the deposited data

Results flagged for a closer look

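For 8 of the 14 chains tested in both lines the effect of N-MYC-ER differed between SHEP and SKNAS by the limma interaction test. Lower in SKNAS than in SHEP were the effects on COL4A6 (-1.31), COL4A5 (-1.25), COL18A1 (-1.10), COL13A1 (-0.69), COL4A1 (-0.44) and COL4A2 (-0.39), as log2 differences of TPM + 1 with adjusted p from 1.93e-12 to 0.00759. They include all 5 tested basement membrane chains. Of the 12306 genes tested in both lines 38.7% had a lower effect in SKNAS and 10.7% a higher, near the shares of the chains (6 and 2 of 14). The effects on COL6A2 (0.73, adjusted p = 9.03e-10) and COL5A1 (0.72, adjusted p = 0.0309) lay above in SKNAS. The median of this difference over all genes was -0.22, so values near that size lie near the shift of the whole table, and SKNAS had 1 experiment. The + 1 shrinks changes of chains at few TPM. In SKNAS MYC-OFF and MYC-ON, COL4A1 had means of 5.09 and 1.05 TPM and COL4A2 of 9.05 and 2.28 TPM. COL5A1 was at 4.44 TPM in SKNAS MYC-ON, so the differences of these chains depend on that offset.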

How the results depend on the processing

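In SHEP the 14 falls and 2 rises of level were counted alike with another pseudocount, after rescaling and with either series left out, and the replicate block also gave 14 lower and 2 higher chains. In these fits 35.8% to 39.3% of all genes were lower and 30.7% to 36% higher. Deviations of same-numbered series correlated between conditions at 0.037 to 0.30 over 14 circadian times, above 0.1 at 11 of them. All are positive, so series may share an effect between conditions. The main model has terms for circadian time and condition, as in the study, and no replicate block. Counts of pairs and the tests of ratios match libraries by circadian time and series number, and the mean change of a ratio does not depend on which series are matched. With series means as replicates, in a fit without a term for series, 13 were lower, beside 28.5% of all genes. In SKNAS the count of chains lower was 16 with the library median as covariate (26.1% of all genes) and 14 after rescaling (23.9%). It was 0 (0.194% of all genes) with only the 13 libraries of median at least 3.8, where 1 residual degree of freedom was left. Without the circadian time term, chosen after seeing the data, it was 16 there (25.4% of all genes). The count higher in SKNAS was 1 with no filter (6.17% of all genes), after rescaling (27.6%) and with the covariate (28.3%). The count of chains whose effect differs between lines was 10 with only the libraries of higher median. There 7.21% of all genes had a higher effect in SKNAS and 9.11% a lower. With a series left out the count was 14 to 15, beside 8.84% to 9.9% of all genes higher and 22.8% lower. Chains with a slope in SHEP MYC-OFF were 4 without series 1 (0.794% of all genes rising and 0.808% falling) and 10 without series 2 (2.61% and 6.5%). With the covariate 1 chain had a slope in SKNAS MYC-ON, a fall (0.749% of all genes). With a pseudocount of 0.1 the ratio of COL4A1 to COL4A2 in SKNAS changed sign (-0.31) and that of COL6A3 to COL6A1 in SHEP passed (-0.40). With a series left out the latter lay between -0.15, where it passed without series 1, and -0.0089.

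Signs turned only for values that had not passed, and of the turned values those of COL6A1 after rescaling, with the covariate and with the time term and higher-median libraries, and that of COL1A1 with the covariate, passed. The SHEP effect on COL13A1 was -0.095 without series 1 and 0.28 without series 2, and that on COL27A1 in SKNAS was 0.17 with the covariate, 0.10 with the libraries of higher median and 0.18 with those and no time term. Differences between lines that turned positive were, for COL6A1, 0.0027 with a pseudocount of 0.1, 0.28 after rescaling, 0.32 with the covariate, and 0.35 and 0.22 with the libraries of higher median, with and without the time term. For COL1A1 they were 0.061, 0.58, 0.33 and 0.18 in the last 4 of these, and from -0.34 to 0.045 with a series left out. For COL7A1 it was 0.027 after rescaling. For COL6A3 they were 0.12 with the covariate and 0.069 with the libraries of higher median, and for COL27A1 0.19, 0.22 and, without the time term, 0.29. The cause was not tested. The 24 h rhythm in SKNAS MYC-ON was not run over libraries of higher median alone, since 3 libraries are too few. Depth per library is unknown, so low chains carry an unknown counting error.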
